A study of Homo sapiens with 3 samples.

Results

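The ZNF genes are the human genes named ZNF with a number, and nearly all of them encode zinc finger proteins. A total of 194 ZNF genes that lie outside chromosome 19 and the sex chromosomes had at least 1 annotated DDX6 peak, out of 12542 gene symbols with a peak assigned to a single gene. They were chosen from the authors' annotated peak lists of both IP libraries, by symbol and by chromosome, and 80 peaks shared with another gene name were left out. The same peaks come from the IP and input reads described here, so a high IP level of these genes is partly how they were chosen and is given as a description. Read counts were used for 191 of the 194 genes, and ZNF605, ZNF664 and ZNF713 had peaks but no counts under their gene IDs.

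RNA crosslinked to the helicase DDX6 was sequenced from MOLM-13 cells, an established human acute myeloid leukaemia line, by eCLIP. In this assay ultraviolet light links protein to RNA in living cells, RNase I shortens the RNA, and an antibody recovers the protein with its fragment, which is then sequenced. The groups are 2 DDX6 IP libraries, made with a commercial DDX6 antibody, and 1 input library prepared from the same line without that step. The labels give no treatment, mutation or time point, and the immunoprecipitation is the difference they name between the groups. DDX6 itself is an RNA helicase of the mRNA decay and translational repression machinery and is needed for P-bodies, cytoplasmic granules that store untranslated mRNA.

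Zinc finger proteins of this family bind DNA through tandem arrays of fingers. Many also hold a KRAB domain, which recruits TRIM28 and, through it, the histone H3K9 methyltransferase SETDB1, so that KRAB zinc finger proteins mostly act as repressors, often of transposable elements. Many KRAB genes arose by tandem duplication and sit in clusters, the largest of which are on chromosome 19. ZNF proteins without KRAB serve widely different roles, from transcription and chromatin complexes to splicing, mitosis and ribosome quality control.

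The tables held 4643494 and 1244213 counted reads in IP replicates 1 and 2, and 7807540 in the input, so IP replicate 2 was the shallowest. Exonic reads of the 194 ZNF genes amounted to 49145 and 11111 reads in IP replicates 1 and 2, which is 1.565% and 1.427% of their exonic reads. The input had 16941 such reads, or 0.7071%. The median gene had 104 and 26.5 exonic reads in the IP libraries and 41 in the input. Of 12 myeloid marker genes, 11 had at least 10 input reads, with CD14 the exception at 1. The myeloid list summed to 5274 and 1515 reads in the IP libraries and 5672 in the input. Erythroid, T cell, B cell, epithelial and fibroblast lists summed to at most 84 and 11 reads in the IP libraries and 27 in the input, nearly all of it from COL1A1, and HBB, CD3E and EPCAM were at 0 in every library. The labels do not say whether the IP libraries were made from separate cultures. The spread between them, pooled over genes, underlies every p-value and may therefore be technical. All intervals are for counting error alone.

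The ZNF genes were spread over 19 chromosomes. Chromosome 16 held 26 of them, chromosome 7 held 25, chromosome 1 held 18, chromosome 8 held 13, chromosome 12 held 12, and chromosomes 3 and 10 held 11 each. Clustering was read from the peaks themselves: 88 genes had another member within 250000 bases and 106 did not. By a hand-made class from textbook knowledge, 85 encode KRAB proteins, 73 encode proteins without KRAB and 36 were not classed. Clustered genes were 59 of the 85 KRAB genes and 8 of the 73 genes without KRAB. Likeness of sequence was not used in this split. How reads that map to several similar genes were assigned is not given in the sources used here, so values of paralogs may share reads. Treatment of strand is likewise not given, so reads of a gene and of a transcript that overlaps it cannot be told apart.

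Exonic reads of most of these genes were more frequent in the DDX6 IP than in the input. Of the 194 genes, 174 had at least 10 exonic reads in at least 2 of the 3 libraries, and 83 of these were called higher in the IP and 9 lower. Across all 10392 genes tested, 16.7% were called higher and 11.4% lower (edgeR's quasi-likelihood test, called where the Benjamini-Hochberg adjusted p was under 0.05). The median log2 fold of IP over input was 0.91 for the ZNF genes, against 0.0029 for all genes tested, with quartiles of 0.24 and 1.44 for the ZNF genes. On the scale of CPM, the usual depth-scaled read rate (here per TMM-scaled exonic reads), both IP libraries lay above the input for 129 of the 174 genes, against 41.7% of all genes, and both lay below it for 26, against 40.8%. For the other 19 the input fell between the IP libraries. The rule took its members from peaks of these libraries, and the read filter can be met by the IP alone, so nothing is read from these counts. The calls depend on the method: DESeq2 called 34 higher and 2 lower, all of them among the 92 called by edgeR, and gave no adjusted p for 5 of those 92. Scaling to library size alone shifted the median of all genes by 1.24 log2 and gave 152 higher and 0 lower.

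**Figure D1:**
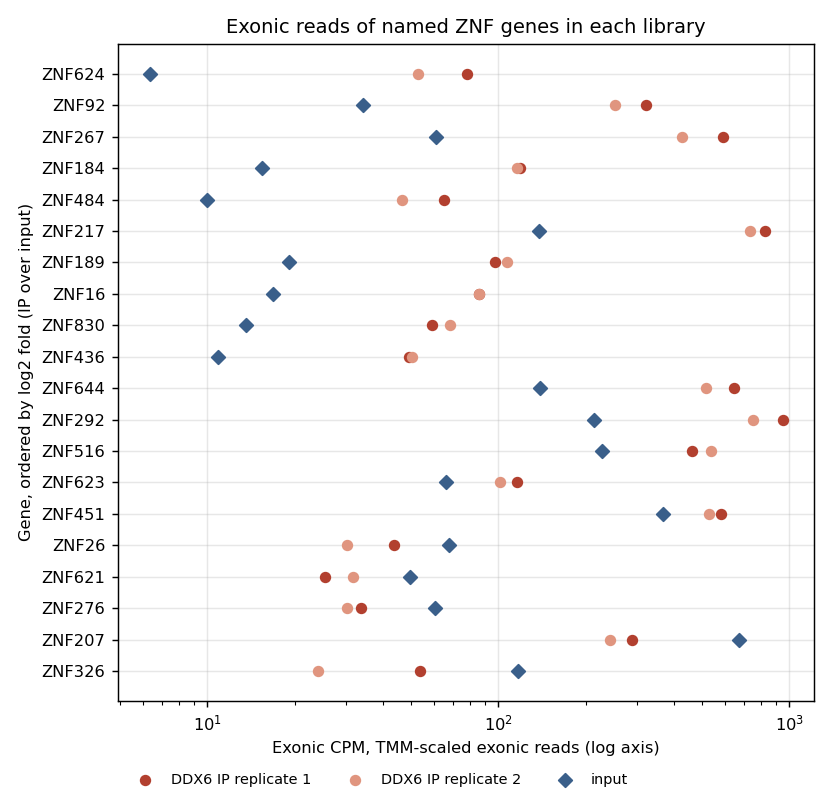
Exonic CPM, scaled by TMM to exonic reads (log axis), of the named ZNF genes in DDX6 IP replicate 1 (dark red), IP replicate 2 (light red) and the input (blue diamonds), ordered by log2 fold. The input lies left of both IP points from ZNF624 down to ZNF451, and right of both for ZNF26, ZNF621, ZNF276, ZNF207 and ZNF326.

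Several KRAB genes led the list. ZNF267 (ENSG00000185947.10), a KRAB zinc finger gene on chromosome 16, had 589.9 and 429 CPM in the IP libraries and 61.1 CPM in the input, a log2 fold of 3.07. ZNF92 (ENSG00000146757.9), on chromosome 7, had 321 and 251 CPM in the IP libraries and 34.4 CPM in the input, likewise a log2 fold of 3.07. For both genes each IP library was several times above the input, and the IP libraries lay closer to each other than to it. ZNF184 on chromosome 6 had 118 and 116 CPM in the IP libraries and 15.4 CPM in the input (log2 fold 2.93). ZNF189 on chromosome 9 had 97.4 and 107 CPM in the IP libraries and 19 CPM in the input (2.42), and ZNF436 on chromosome 1 had 49.3 and 50.5 CPM and 10.9 CPM (2.19). These 3 KRAB genes had nearly equal levels in both IP libraries.

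The largest fold belonged to ZNF624 on chromosome 17, at 78.1 and 53.0 CPM in the IP libraries and 6.33 CPM in the input, a log2 fold of 3.41 (SE 0.43). This rested on 14 input reads, against 250 and 42 reads in the IP. ZNF484 on chromosome 9 had 209 and 37 IP reads and 22 input reads (2.53), and ZNF16 on chromosome 8 had 274 and 68 IP reads and 37 input reads (2.35). ZNF786, a KRAB gene below the read level the naming rule asked for, had 67 and 19 IP reads and 5 input reads (3.25). It is named after its values were seen.

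The 6 genes with most exonic reads, ZNF292, ZNF217, ZNF451, ZNF644, ZNF207 and ZNF516, all lack KRAB, and 4 of them were called higher, 1 was called lower and 1 was not called. ZNF292 (ENSG00000188994.8), which encodes a very large zinc finger protein, had most exonic reads of the whole list, at 949 and 747 CPM in the IP libraries and 213 CPM in the input, a log2 fold of 1.999. ZNF217 (ENSG00000171940.9), an oncogene that encodes a subunit of CtBP and LSD1 co-repressor complexes, had 825 and 732 CPM in the IP libraries and 138 CPM in the input, a log2 fold of 2.49. ZNF644, which encodes a partner of the H3K9 methyltransferases G9a and GLP, had 643 and 519 CPM in the IP libraries and 139 CPM in the input (2.07). ZNF516, whose product has been found with LSD1 and CtBP, had 464 and 538 CPM in the IP libraries and 228 CPM in the input (1.13). For ZNF292, ZNF217, ZNF644 and ZNF516 the IP libraries did not overlap the input. With intronic reads counted as well, ZNF516 turned to a log2 fold of -0.31. ZNF451, which encodes a SUMO ligase, had 580.3 and 529 CPM in the IP libraries and 366 CPM in the input, and its log2 fold of 0.60 was not called. ZNF207, the gene called lower, is described with the other lower genes.

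Other regulators without KRAB, chosen here after their values were seen, also had positive folds. ZNF592 (1.33) and ZNF687 (1.40), which encode partners of ZMYND8, were called higher, while ZNF532 (1.02), of the same complex, was not called. ZNF518A (1.44) and ZNF518B (2.10), relatives linked to G9a, were both called higher. ZNF281 (1.47) and ZNF148 (1.02), which bind GC-rich promoters, were called higher. ZNF521, known for roles in early blood and mesenchymal progenitors, had 1012 and 242 IP reads and 292 input reads (1.23). ZNF384, which is fused to other genes in some acute leukaemias, had 287 and 82 IP reads and 136 input reads, and its log2 fold of 0.63 was not called. ZNF143, an activator at promoters, had 95 and 27 IP reads and 37 input reads (0.90) and was not called either.

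The remaining genes called higher formed a continuous range. The 21 highest ran between 2.07 and 3.41 log2 and took in, besides those above, ZNF658, ZNF669, ZNF684, ZNF485, ZNF597, ZNF830, ZNF680, ZNF596 and ZNF268. The next 19, between 1.52 and 1.999, took in ZNF141, ZNF354A, ZNF670, ZNF778, ZNF79, ZNF34, ZNF12, ZNF280B, ZNF2, ZNF195, ZNF107, ZNF318, ZNF18, ZNF212, ZNF3, ZNF23, ZNF398 and ZNF646. A further 33 lay between 1.01 and 1.47, and 10 between 0.73 and 0.99, with ZNF623 lowest of all called higher at 0.73. ZNF623 lost its call with DESeq2, with no read filter and at 30 reads or more. Of the 82 genes not called, 8 had folds over 1 and up to 1.43, 49 had smaller positive folds, and 25 had negative ones down to -1.17.

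The 9 genes called lower were ZNF169, ZNF589, ZNF789, ZNF326, ZNF207, ZNF696, ZNF276, ZNF621 and ZNF26. ZNF207, also called BuGZ, encodes a protein that binds BUB3 at kinetochores and takes part in splicing. It had 289 and 241 CPM in the IP libraries and 672 CPM in the input, a log2 fold of -1.34, the most abundant gene of the list in the input. ZNF326, which encodes a subunit of the DBIRD complex that couples elongation to splicing, had 172 and 19 IP reads and 257 input reads (-1.44). Its IP libraries differed by over 1 log2 from each other, at -1.10 and -2.23, though both lay below the input. ZNF276 had 108 and 24 IP reads and 134 input reads (-0.90), ZNF621 had 81 and 25 and 110 (-0.86), and ZNF26 had 140 and 24 and 149 (-0.80). These 3 were not called by DESeq2 or without a read filter, and turned to 0.35, 0.38 and 0.45 with library-size scaling. The IP libraries differed by over 1 log2 for 3 other genes, ZNF79 (1.14 and 2.23), ZNF346 (-0.93 and 0.71) and ZNF517 (-0.14 and -2.17), of which ZNF79 alone was called.

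KRAB genes and genes without KRAB had similar exonic medians. Of 76 KRAB genes tested, 37 were called higher and 5 lower, with a median log2 fold of 0.98. Of 68 genes without KRAB, 32 were higher and 3 lower, with a median of 0.88, and of 30 genes not classed, 14 were higher and 1 lower (0.85). Genes with another member nearby were called higher in 33 of 79 cases and lower in 3 (median 0.84), and those without in 50 of 95 and 6 (median 0.99). Chromosome 12 had the lowest median of the 7 chromosomes with more than 10 members, at 0.23 over 9 genes tested, and chromosome 7 the highest at 1.13 over 22. The other 5 were close together, with 1.01 on chromosome 1, 0.84 on chromosome 3, 0.81 on chromosome 16, 0.75 on chromosome 10 and 0.73 on chromosome 8. These splits are descriptions, since genes are not replicates, and no difference between them was tested.

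The ZNF genes of chromosome 19, taken by the same peak rule, had higher values. Of their 127 genes tested, 93 were called higher and 0 lower, with a median log2 fold of 1.64. Genes named ZBTB, ZKSCAN, ZSCAN or ZFP with a number, which also encode zinc finger proteins, were called higher in 30 of 58 cases and lower in 0, with a median of 1.14. Whether the lists differ was not tested, since genes are not replicates and only 1 input library exists.

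**Figure D2:**
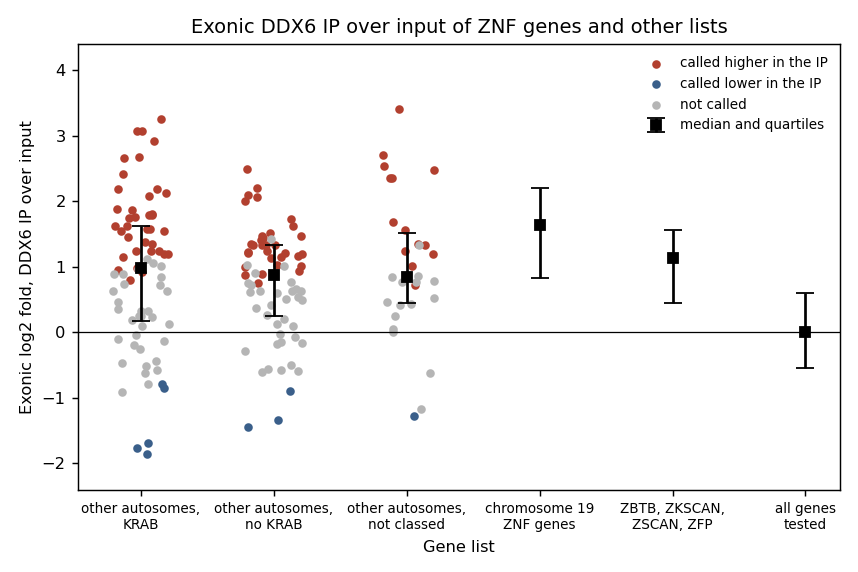
Exonic log2 fold of DDX6 IP over input for ZNF genes of the other autosomes by class, each point 1 gene, with the median and quartiles (black squares and bars) also for chromosome 19 ZNF genes, related zinc finger genes and all genes tested. The medians of the 3 classes lie between 0.85 and 0.98, that of chromosome 19 at 1.64 and that of all genes at 0.0029.

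A list of KRAB co-repressor and other H3K9 silencing genes held more higher than lower calls, and most of it was not called. Of 29 co-repressor and H3K9 silencing genes, all tested, 9 were called higher and 1 lower, against 16.7% and 11.4% of all genes, with a median log2 fold of 0.33. SETDB1, the H3K9 methyltransferase recruited by TRIM28, had 177 and 201 CPM in the IP libraries and 54.7 CPM in the input (1.78). TRIM28, the cofactor that KRAB domains bind, had 173 and 285 CPM in the IP libraries and 220 CPM in the input, so the input lay between them and its log2 fold was 0.02. ATF7IP (1.43), which stabilises SETDB1, and MPHOSPH8 (1.28) and MORC2 (1.25), which belong to or act with the HUSH complex, were called higher. SMARCAD1 (1.14), TRIM24 (1.06), DNMT1 (0.98), ATRX (0.96) and DAXX (0.93) were the others called higher, and CBX1, which encodes HP1 beta, was the gene called lower (-0.87). The other 19 were not called, among them TRIM28, CBX3 (-0.22) and CBX5 (-0.20). HDAC1, HDAC2, CHD3, CHD4, MBD3, MTA1 and MTA2 were not called either, with folds between -0.29 and 0.30.

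Within the ZNF transcripts, the IP reads lay mainly in exons, and most of all in coding sequence, while the input reads lay mainly in introns. Coding sequence held 43.4% (95% Clopper-Pearson interval 43.0 to 43.8) and 41.1% (40.3 to 41.9) of the ZNF reads in IP replicates 1 and 2, and 7.23% (7.06 to 7.41) in the input, a ratio of 5.85. The 3'UTR held 27.9% and 24.3% in the IP libraries and 10.5% in the input, a ratio of 2.48. The 5'UTR held 4.23% and 4.96% in the IP libraries and 1.79% in the input, a ratio of 2.57. Introns with their splice sites held 20.3% and 25.7% in the IP libraries and 76.9% in the input, a ratio of 0.30. In each region both IP libraries were on the same side of the input, and the gap between them was smaller than their distance from it.

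Over all genes together the matching ratios were 3.47 for coding sequence, 2.08 for the 3'UTR, 2.67 for the 5'UTR and 0.40 for introns. Chromosome 19 ZNF genes had a coding ratio of 4.401, with 49.7% and 49.0% of their reads in coding sequence in the IP libraries and 11.2% in the input. Leaving out the 5 ZNF genes with most input reads lowered the coding ratio to 4.72 and the 3'UTR ratio to 1.89, and the intron of ZNF516, one of the 5, had 999 and 350 reads in the IP libraries and 4932 in the input. Shares of 1 whole move together, so fewer intron reads raise the share of every other region. The single input library gives these shares no replicate error of its own.

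Counted region by region, ZNF coding sequences were higher in the IP in most genes and lower in none. Of 142 coding regions tested, 111 were called higher and 0 lower, against 51.2% and 0.208% of all coding regions, with a median log2 fold of 1.96, against 1.02 over all genes. Peaks of the same reads chose the genes, so nothing is read from these shares or from those of the other regions. At 30 reads or more, 65 were called higher. Of 121 3'UTRs, 65 were called higher and 5 lower, against 23.9% and 6.83% of all 3'UTRs, with medians of 1.14 for ZNF genes and 0.28 for all. DESeq2 called 32 of these 3'UTRs higher and 2 lower, and 39 and 3 were called at 30 reads or more. Of 38 5'UTRs, 13 were called higher and 3 lower, against 33.2% and 4.49% of all 5'UTRs, with medians of 0.99 and 0.74. The count for 5'UTRs was 6 and 0 with DESeq2, 24 and 1 with library-size scaling, and 1 and 0 at 30 reads or more.

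Introns went the other way. Of 134 introns tested, 0 were called higher and 121 lower, against 2.57% and 83% of all introns, with medians of -1.98 for ZNF genes and -1.93 for all. The least lowered of those called were the introns of ZNF512B, with 39 and 14 IP reads and 90 input reads (-0.94), ZNF598, with 76 and 27 and 182 (-0.98), and ZNF692, with 41 and 12 and 95 (-1.06). Positive folds appeared for the introns of ZNF646, ZNF397 and ZNF19 alone, named after their values were seen, and none of these was called. ZNF646 had 9 and 12 IP reads and 11 input reads there. The scaling of region folds takes exons and introns in 1 pool, so exonic regions run higher than the exonic folds of whole genes given above.

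**Figure D3:**
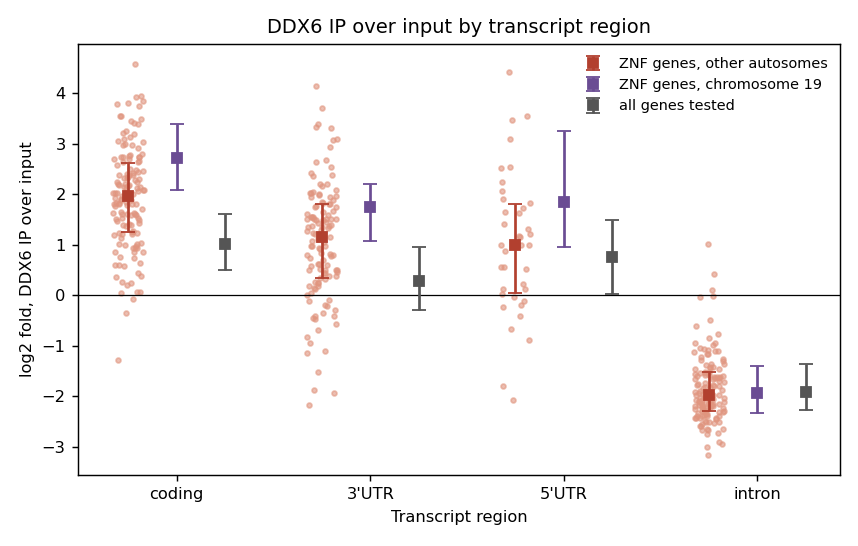
Log2 fold of DDX6 IP over input in coding sequence, 3'UTR, 5'UTR and intron, with 1 light point per ZNF gene of the other autosomes and squares with bars for the median and quartiles of these genes (red), chromosome 19 ZNF genes (purple) and all genes tested (grey). In coding sequence the medians are 1.96, 2.71 and 1.02, in introns -1.98, -1.95 and -1.93.

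The highest coding folds belonged to genes already named for their folds over all exons, which include the coding reads. The coding sequence of ZNF624 had 157 and 29 reads in the IP libraries and 6 in the input, a log2 fold of 4.58 (SE 0.56). That of ZNF267 had 1362 and 248 reads in the IP libraries and 81 in the input (3.94), and that of ZNF680, a KRAB gene on chromosome 7, had 272 and 70 in the IP libraries and 19 in the input (3.91). ZNF786 had 45 and 10 IP reads and 3 input reads in its coding sequence, which gives 15.5 times the input rate, with counting limits (95%) at 5.04 and 77.5. The coding sequences of ZNF624 and ZNF786 passed the read filter through the IP libraries alone. The smallest coding folds among those called lay near the coding median of all genes, 1.02. ZNF598, which encodes the ubiquitin ligase that marks collided ribosomes, had 113 and 50 reads in the IP libraries and 78 in the input (0.98). ZNF655 had 77 and 18 in the IP libraries and 39 in the input (1.02). ZNF259, also called ZPR1, had 86 and 29 in the IP libraries and 44 in the input (1.21).

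In the 3'UTR, ZNF337 had the largest fold, with 56 and 12 reads in the IP libraries and 3 in the input, 19.2 times the input rate, with counting limits (95%) at 6.29 and 95.3. ZNF624 followed with 90 and 13 IP reads and 6 input reads (3.70), and ZNF267 with 477 and 82 and 41 (3.39). The 3'UTRs of ZNF337 and ZNF624 passed the read filter through the IP libraries alone. The 5 3'UTRs called lower were those of ZNF789, with 18 and 5 IP reads and 89 input reads (-2.18), ZNF326, with 63 and 8 and 215 (-1.94), ZNF207, with 349 and 70 and 1227 (-1.87), ZNF277, with 40 and 13 and 132 (-1.52), and ZNF589, with 33 and 8 and 74 (-1.10). The last 2 were named after their values were seen. Of these 5 genes, ZNF277 was not called over all exons and the others were called lower.

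In the 5'UTR, ZNF92 had 51 and 22 reads in the IP libraries and 3 in the input, 20.6 times the input rate, with counting limits (95%) at 6.77 and 102. It passed the read filter there through the IP libraries alone. ZNF24, a SCAN domain transcription factor on chromosome 18, had 110 and 29 IP reads and 10 input reads (3.54), and ZNF217 had 285 and 53 and 24 (3.46). The 5'UTR fold of ZNF24 stood apart from its 3'UTR, which had 680 and 119 IP reads and 380 input reads (0.70, not called). The 3 5'UTRs called lower were those of ZNF26, with 20 and 4 IP reads and 85 input reads (-2.08), ZNF140, with 12 and 1 and 37 (-1.81), and ZNF706, with 111 and 38 and 247 (-0.89). For ZNF26 the coding sequence had 78 and 12 IP reads and 35 input reads, a log2 fold of 1.01 that was not called, and its 3'UTR had 42 and 8 IP reads and 29 input reads (0.49, not called).

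ZNF518A has its exonic reads under the heading of non-coding exons in the deposited counts. It had 1281 and 287 such reads in the IP libraries and 311 in the input (2.03 on the region scale). Of 4 ZNF genes tested there, ZNF518A, ZNF316 and ZNF652 were called higher, against 18.4% of all such genes higher and 21.7% lower. ZNF252P, at 120 and 22 IP reads and 116 input reads, was not called. All 4 were named after their values were seen.

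The difference between coding sequence and 3'UTR of the same gene does not depend on scaling between libraries, and the rule did not use the region of a peak. It was tested with an interaction term in 1 fit over both regions, with the library as a block. Counts were summed per gene, so reads of the 2 regions may come from different transcripts of that gene. Coding sequence exceeded the 3'UTR in 27 of 107 ZNF genes and fell below it in 1, against 29.6% and 0.702% of 6552 genes (edgeR's quasi-likelihood test, adjusted p under 0.05 over all of them). The median difference was 0.76 log2 for ZNF genes and 0.82 for all genes, so the ZNF share was near the background. Of the 107 genes, 9 had under 10 input reads in a region and so passed the filter through the IP there, and they hold 2 of the 27 and the 1 gene below. Of the other 98, coding sequence was called above the 3'UTR in 25 and below it in 0. All 28 called differences had 1 direction in both IP libraries. DESeq2 called 4, those of ZNF207, ZNF7, ZNF736 and ZNF451, and gave no adjusted p for 11 of the 28. At 30 reads or more 20 were called, all with coding sequence higher.

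ZNF207 gave the clearest split within 1 gene. Its coding sequence had 508 and 103 reads in the IP libraries and 210 in the input, and its 3'UTR had 349 and 70 in the IP libraries and 1227 in the input. Coding sequence exceeded the 3'UTR by 3.09 log2 (SE 0.31, edgeR adjusted p = 1.297e-19), with 3.07 and 3.08 in IP replicates 1 and 2. The coding sequence alone was called higher (1.21) on the region scale and had an exonic log2 fold of 0.19 when coding reads alone were scaled, against -1.34 with all exons. Of its 1486 exonic reads in the input, 1227 were in the 3'UTR.

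The same pattern held for ZNF277, whose coding sequence had 141 and 30 IP reads and 41 input reads, and whose 3'UTR had 40 and 13 IP reads and 132 input reads. The difference was 3.31 log2 (SE 0.47, edgeR adjusted p = 9.457e-10), with 3.38 and 2.78 in IP replicates 1 and 2. ZNF7, a KRAB gene on chromosome 8, had 291 and 93 IP reads and 65 input reads in coding sequence, and 16 and 5 IP reads and 35 input reads in the 3'UTR. Its difference was 3.30 log2 (SE 0.54, edgeR adjusted p = 1.457e-07), with 3.19 and 3.24 in IP replicates 1 and 2. ZNF678, also a KRAB gene, had 141 and 24 IP reads and 11 input reads in coding sequence, and 86 and 25 IP reads and 68 input reads in the 3'UTR, a difference of 3.08 log2 (SE 0.56, edgeR adjusted p = 2.355e-06). ZNF326 (2.95) and ZNF736 (2.83) came next and were named after their values were seen. In ZNF326 the coding sequence had 97 and 10 IP reads and 41 input reads, against a 3'UTR that was called lower.

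Smaller differences passed where counts were high. Those of ZNF292, ZNF800 and ZNF609 lay between the quartiles of all genes (0.35 and 1.27, median 0.82). The test is against 0, so these calls do not set the genes apart from others. Coding sequence exceeded the 3'UTR by 0.85 log2 in ZNF292 (SE 0.34, edgeR adjusted p = 0.04195), 0.95 in ZNF800 (SE 0.34, edgeR adjusted p = 0.02062) and 1.02 in ZNF609 (SE 0.38, edgeR adjusted p = 0.02887), and none of these was called by DESeq2. ZNF292 had 2597 and 525 coding reads in the IP libraries and 368 in the input, with 440 and 67 3'UTR reads in the IP libraries and 100 in the input. ZNF609, better known for a circular RNA, had 197 and 47 coding reads in the IP libraries and 66 in the input. ZNF451, whose exonic fold was not called, had a coding excess of 1.37 log2 (SE 0.31, edgeR adjusted p = 0.0002105). In IP replicate 2 its significant 3'UTR peaks (hg19, chromosome 6, 56967114 to 56968476) lay inside the span of its coding ones (56963859 to 57012870). Its 2 regions thus need not belong to the same transcript. ZNF337 was the 1 gene called with the 3'UTR above the coding sequence, with 93 and 22 coding reads in the IP libraries and 31 in the input, and 56 and 12 3'UTR reads in the IP libraries and 3 in the input. Its 3'UTR passed the read filter through the IP libraries alone, so the call is not read as a result, and it was not made at 30 reads or more.

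Some genes with many reads had no called difference from 0 at this depth. ZNF217 had 1241 and 303 coding reads in the IP libraries and 157 in the input, and 1114 and 224 3'UTR reads in the IP libraries and 124 in the input, a difference of -0.06 log2 (SE 0.33). ZNF516 differed by 0.15 (SE 0.32), ZNF92 by 0.48 (SE 0.45) and ZNF267 by 0.57 (SE 0.40), none of them called. Beside all genes, ZNF217 and ZNF516 lay below the lower quartile (0.35), and ZNF92 and ZNF267 lay between the quartiles (0.35 and 1.27). In these 4 genes coding sequence and 3'UTR were both called higher. Of the 28 genes called, 15 were called higher over all exons, 3 lower and 10 not called.

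**Figure D4:**
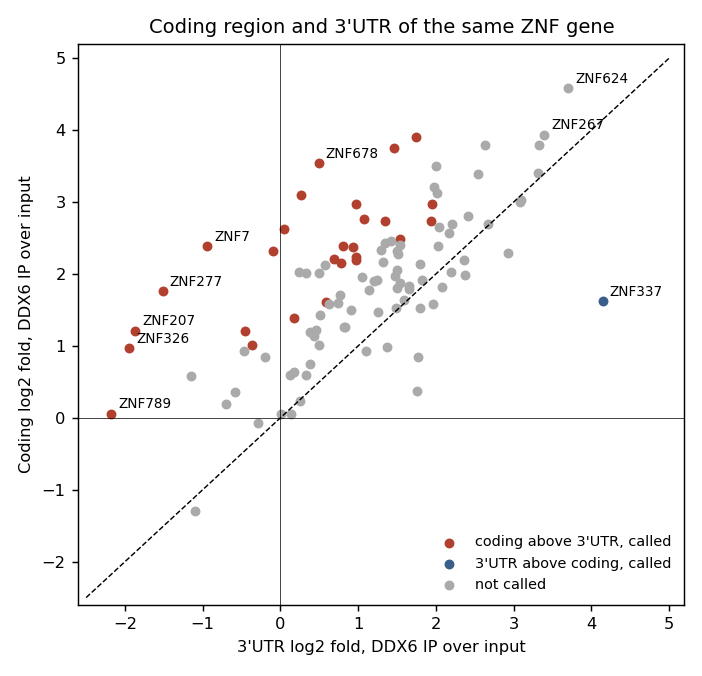
Coding log2 fold (vertical) against 3'UTR log2 fold (horizontal), DDX6 IP over input, for the 107 ZNF genes of the other autosomes with both regions tested, coloured by the test of the difference between the regions, with the line of equality dashed. Red genes, such as ZNF277, ZNF207, ZNF7 and ZNF678, lie far above the line, and ZNF337, whose 3'UTR passed the read filter through the IP libraries alone, is the 1 gene called below it.

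Coding sequence had the higher log2 fold in 90 of the 107 genes (84.1%), against 86.8% of all genes. Against the 5'UTR it was higher in 30 of 37 ZNF genes (81.1%), where all genes gave 60.6% and chromosome 19 ZNF genes 14 of 23 (60.9%). The 5'UTR exceeded the 3'UTR in 15 of 33 (45.5%), against 66.4% of all genes and 14 of 20 chromosome 19 ZNF genes (70.0%). In all 116 genes with both regions tested, coding sequence exceeded the intron, against 99.5% of all genes, and in all 99 the 3'UTR did, against 97.6%, so both counts were near the background. Among 93 ZNF genes with coding sequence, 3'UTR and intron tested, 45 (48.4%) had both exonic regions called higher and the intron lower, against 20.8% of all 5987 such genes. A further 23 (24.7%) had the coding sequence alone called higher beside a lower intron, against 32.3% of all. Neither exonic region was called beside a lower intron in 14 (15.1%), against 31.6% of all. These patterns come from the contrast whose peaks chose the genes, so nothing is read from them. Coding and 3'UTR folds moved together across the 107 genes, with Pearson's r of 0.64 and Spearman's rho of 0.63, given as a description since both folds share the 3 libraries.

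By role, KRAB genes and those without differed more in the share of 3'UTRs called higher than in that of coding sequences, as counts without a test. Their medians lay about as far apart in both regions. Coding sequence was called higher in 50 of 62 KRAB genes (median 2.08) and in 45 of 60 without KRAB (median 1.82). The 3'UTR was called higher in 24 of 53 KRAB genes and lower in 2 (median 0.94), and in 32 of 52 without KRAB and lower in 3 (median 1.25). Introns were called lower in 55 of 61 KRAB genes and in 49 of 52 without KRAB. Over all genes, 51.2% of coding sequences and 23.9% of 3'UTRs were called higher, and 6.83% of 3'UTRs and 83% of introns lower. The intron counts were thus near the background, and nothing is read from the others, since peaks chose the genes.

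Members whose products bind RNA or act on ribosomes, a group put together after values were seen, were mixed. ZNF638, a nuclear protein that binds RNA and DNA, had 973 and 202 exonic reads in the IP libraries and 340 in the input (0.87, called higher). ZNF106, an RNA-binding protein, had 1127 and 235 in the IP libraries and 358 in the input (1.01, called higher), and ZNF622, a factor of large ribosomal subunit maturation, had 115 and 27 and 31 (1.32, called higher). ZNF598 was not called over all exons (0.50). Its coding sequence and 3'UTR each were on the region scale, where exonic regions run higher. Its coding fold of 0.98 there was below the median of all genes, 1.02. ZNF346, which binds double-stranded RNA, had 29 and 24 IP reads and 40 input reads (-0.15), and ZNF385A had 114 and 38 IP reads and 132 input reads (-0.57). Neither was called, and ZNF207 and ZNF326 were called lower. ZNF830, linked to pre-mRNA splicing, had 189 and 54 IP reads and 30 input reads (2.20, called higher).

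The deposited peaks show where on the transcripts the IP reads collect. The 194 genes held 2760 peaks in the authors' lists, 1810 in IP replicate 1 and 950 in IP replicate 2, between 1 and 275 bases long with a median of 50. Significant peaks, taken as a -log10 p of at least 3 and a log2 fold over input of at least 3 in the authors' values, numbered 500 in IP replicate 1 and 261 in IP replicate 2. They made up 27.6% and 27.5% of the ZNF peaks, where all peaks of the lists gave 11.5% and 12.9%. Coding sequence held 336 of the 500 (67.2%) and 187 of the 261 (71.7%), and among all significant peaks it held 71.1% and 67.0%. The 3'UTR held 119 and 44, the 5'UTR 32 and 18, non-coding exons 11 and 9, and introns or splice sites 2 and 3.

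Significant peaks lay in 111 of the 194 genes, against 37.2% of all symbols with a peak, and 61 genes had one in both lists, against 17.4% of all. The same peaks chose the genes, and numbers of peaks per gene differ, so nothing is read from this. The other 83 genes had none. Of the significant peaks of IP replicate 1, 113 (22.6%) overlapped one of IP replicate 2 by at least 1 base on the same strand, and 108 of those of IP replicate 2 (41.4%) overlapped one of IP replicate 1. Overlapping peaks lay in 40 genes. Where at least 50% of both peaks had to overlap, 56 peaks of each list were shared, in 24 genes. At a -log10 p of at least 5, 365 and 118 peaks were left, in 71 genes.

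ZNF292 on chromosome 6 had most significant peaks, 35 in IP replicate 1 and 24 in IP replicate 2, of which 31 and 23 lay in coding sequence. ZNF217 on chromosome 20 had 21 and 17, ZNF644 on chromosome 1 had 22 and 16, ZNF267 on chromosome 16 had 16 and 12, and ZNF92 on chromosome 7 had 12 and 9. The regions differed among them: ZNF217 had 8 and 11 peaks in coding sequence and 9 and 5 in the 3'UTR, whereas coding sequence held 19 and 14 of those of ZNF644 and its 3'UTR 3 and 2. The 3'UTR of ZNF516 held 8 and 6 such peaks, and its coding sequence 3 and 2. ZNF207, with 25 listed peaks in each IP library, had 0 significant ones in either.

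**Figure D5:**
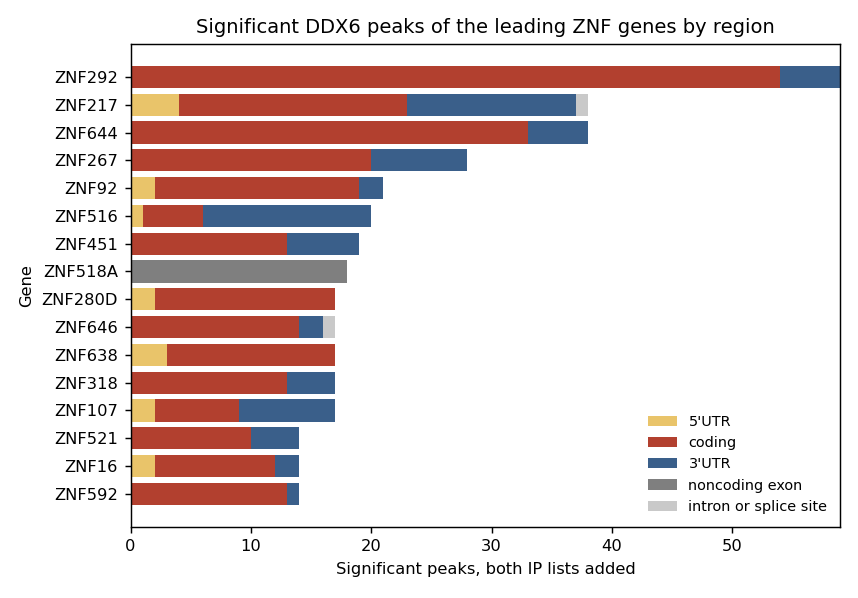
Number of significant DDX6 peaks in the 16 ZNF genes with most of them, both IP lists added (horizontal axis), stacked by annotated region. Coding sequence makes up most of the bar of ZNF292, ZNF644 and ZNF267, ZNF516 has more 3'UTR than coding peaks, and all 18 peaks of ZNF518A are in non-coding exons.

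The authors' list of reproducible peaks held 62 peaks in 12 of these genes, among 1587 in all. Of the 62, 45 lay in coding sequence, 13 in the 3'UTR and 4 in the 5'UTR. ZNF292 had 17, ZNF644 had 11, ZNF267 had 9, ZNF217 had 8, ZNF92 had 4, ZNF24 and ZNF516 had 3 each, ZNF800 and ZNF521 had 2 each, and ZNF680, ZNF107 and ZNF451 had 1 each. The largest log2 fold over input, as the authors gave it, was 5.47 for an 18-base peak in the coding sequence of ZNF267 (hg19, chromosome 16, 31927460 to 31927477, plus strand). Upstream in the same coding sequence, a peak of 141 bases had the highest -log10 p of that gene, 42.4, with a log2 fold of 4.91 (hg19, chromosome 16, 31926969 to 31927109). ZNF92 had a 44-base coding peak at 5.36 (hg19, chromosome 7, 64852897 to 64852940, plus strand) and an 80-base 5'UTR peak at 4.31 (64838799 to 64838878).

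ZNF217 had a 107-base coding peak with a log2 fold of 5.17 and a -log10 p of 35.5 (hg19, chromosome 20, 52199221 to 52199327, minus strand). Its 96-base 3'UTR peak, at 52184066 to 52184161, had a smaller fold of 4.28 and a higher -log10 p of 55.4. The single reproducible peak of ZNF680 spanned 236 bases of coding sequence with a log2 fold of 5.01 (hg19, chromosome 7, 63981814 to 63982049, minus strand), and the leading one of ZNF644 was 46 bases long at 4.70 (hg19, chromosome 1, 91382428 to 91382473, minus strand). In ZNF24 a coding peak (hg19, chromosome 18, 32920582 to 32920641, minus strand, log2 fold 4.54) adjoined a 5'UTR peak (32920642 to 32920697, log2 fold 4.33).

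At the edge of the rule, 11 genes had a single peak in both lists together. Of these, 4 had enough exonic reads to be tested, with log2 folds between -0.78 and 1.43. On the other side, 65 further ZNF symbols of these chromosomes had counts and no peak, and 6 of them passed the read filter. ZNF703 had 42 and 10 exonic reads in the IP libraries and 13 in the input (1.13). ZNF731P had 266 and 55 and 146 (0.23), ZNF271P had 76 and 28 and 60 (0.04), ZNF248 had 32 and 7 and 34 (-0.67), ZNF117 had 13 and 1 and 31 (-2.06) and ZNF767P had 17 and 7 and 69 (-2.30). ZNF117 and ZNF767P were called lower, and the other 4 were not called. Of the 20 members not tested, 17 had counts, with at most 29 exonic reads in any library (ZNF311 being highest). The other 3 had no counts under their gene IDs. A total of 148 of the 194 had a peak in both IP lists.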

How the data were processed

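For 2 DDX6 IP libraries and 1 input of MOLM-13 cells the authors deposited unnormalised counts by gene and region, and annotated peak lists in which each peak has a -log10 p and a log2 fold over the input, by their deposited values. UMI-tools, cutadapt, STAR, SAMtools and genome build hg19 were used, per the submitters' processing notes. The peak caller, counter, annotation and strand setting were not given in the sources used here.

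Groups were taken from the labels. Counts were fitted with edgeR 4.0.16 (R 4.3.3), requiring at least 10 reads in at least 2 of 3 libraries. Exonic reads summed per gene (10392 genes) and reads of each gene region were fitted after TMM scaling. The coding minus 3'UTR difference was fitted with the total counted reads of each library and no TMM scaling. P-values were Benjamini-Hochberg adjusted over all features. The IP pair alone supplied the spread (1 residual degree of freedom), and the input was taken to vary by as much. That spread was pooled over genes, with 75.8 prior degrees of freedom in the gene fit and an infinite number in the other fits. A gene's own agreement between the IP libraries therefore had little weight in its p-value in the gene fit, and none in the others. The gene fit had a coefficient of variation of 16.5%. Per-library log2 folds used a prior count of 2. On simulated data the gene fit (10150 genes) found 26.7% of simulated 2-fold changes and 90.5% of 4-fold ones, with 3 of 113 calls false. For the region fit (27489 rows) it was 7.69% and 85.5%, with 2 of 80 false. For the coding minus 3'UTR fit it was 13.8% and 79.1%, with 2 of 83 false. Each simulation used 1 spread estimated from these libraries, so it does not cover false calls that come from the unreplicated input.

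The genes and lists were chosen with earlier results of these data known. Named were the 10 largest and 6 smallest called exonic folds above the median read level of the tested genes, the 6 genes with most reads, the 3 extreme called folds per region, the 4 largest and 4 smallest called coding minus 3'UTR differences, the 5 genes with most significant or strongest reproducible peaks, TRIM28 and SETDB1. Only 5 lower calls met the read level, so the sixth of the smallest is a higher call. Alternatives were library-size scaling, DESeq2 1.42.0, other read filters, other read sets, other peak thresholds and leaving out an IP library. Ensembl IDs were matched to symbols for 28576 of 29754. Sequences of the peaks were not used, as no hg19 genome was at hand.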

Additional observations from a re-analysis of the deposited data

How the results depend on the processing

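No paired analysis was possible because there is a single input library for both IP libraries. With library-size scaling, which moved the median of all genes by 1.24 log2, 152 genes were higher and 0 lower over all exons (median 2.15 log2). The region medians were then 2.60 for coding sequence, 1.78 for the 3'UTR (3 lower), 1.64 for the 5'UTR (24 higher, 1 lower) and -1.34 for introns (2 higher). Folds of ZNF259 (1.17), ZNF26 (0.45), ZNF276 (0.35), ZNF277 (0.75), ZNF512B (1.21), ZNF621 (0.38) and ZNF655 (0.78) turned positive. DESeq2 gave 34 higher and 2 lower genes, 76 higher coding regions (9 of the 111 had no adjusted p), 83 lower introns (9 of the 121 had none), 32 and 2 3'UTRs, 6 and 0 5'UTRs and 4 and 0 coding minus 3'UTR differences. With no filter beyond 1 read the medians were 0.99 over exons, 1.67 in coding sequence, 0.98 in the 3'UTR and -2.25 in introns (1 higher). At 30 reads or more, 48 genes were higher (median 0.81), as were 65 coding regions (2.22), 39 3'UTRs (3 lower) and 1 5'UTR (0 lower, median 0.53), and 0 3'UTRs exceeded coding sequence. With intronic reads added, 18 genes were lower (median 0.59), and ZNF516 (-0.31), ZNF609 (-0.98), ZNF678 (-0.0525) and ZNF621 (0.0276) changed sign. With coding reads alone, 1 gene was lower (median 0.94) and ZNF207 turned to 0.19. The cause of these changes was not tested. Leaving out either IP library leaves no residual degrees of freedom, so medians alone were computed. They ran from 0.81 to 0.90 over exons, 1.893 to 1.899 in coding sequence, 0.95 to 1.11 in the 3'UTR, 0.62 to 0.78 in the 5'UTR, -2.06 to -1.73 in introns and 0.69 to 0.84 for coding minus 3'UTR. Without the 5 genes with most input reads the IP over input ratios of read shares were 4.72 for coding sequence, 1.89 for the 3'UTR and 2.09 for the 5'UTR. At a -log10 p of at least 5 there were 118 significant peaks in IP replicate 2, in 34 genes, and 69 of them were shared. Genes with a significant peak then numbered 71 in either list, 31 in both and 20 with a shared one. At a log2 fold of at least 1 IP replicate 1 had 823 significant peaks, and 185 and 170 were shared. With a reciprocal overlap, 56 and 56 peaks in 24 genes were shared. In simulated data with these library sizes and numbers of libraries most 2-fold changes were missed. What depth and the number of libraries each contribute was not tested.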
